A study of Homo sapiens with 6 samples.

Results

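The genes described are 10 genes of the FLT3 and STAT5 signalling axis in the human acute myeloid leukemia (AML) cell line MV4-11. They were chosen by their role in the pathway, with earlier results of these data known, and comprise the receptor *FLT3*, the transcription factors *STAT5A* and *STAT5B*, the STAT5 target genes *PIM1*, *PIM2*, *SOCS2* and *CISH*, the feedback genes *DUSP6* and *SPRY2*, and *MYC*. They are 10 of the 61806 genes in the count table, and all 10 passed the filter on low counts, which kept 19149 genes. RNA was sequenced from 3 libraries with a control shRNA (shNC 1 to 3) and 3 libraries labelled shATGL (1 to 3), for an shRNA that targets the gene of adipose triglyceride lipase, *ATGL*, listed as *PNPLA2*. MV4-11 is a monocytic AML line that carries an internal tandem duplication in *FLT3* (FLT3-ITD), so cells of both groups share this allele, and the shRNAs were delivered by lentivirus with selection of stable cells. Only this cell line was sequenced, and the labels state neither which shRNA sequence each library labelled shATGL carries nor whether the libraries came from separate cultures, so p-values measure only the spread between these libraries.

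FLT3 is a receptor tyrosine kinase of hematopoietic progenitors. The internal tandem duplication keeps it active without its ligand, and the active receptor signals through STAT5 and through the RAS to ERK cascade. STAT5A and STAT5B are phosphorylated, form dimers and bind the GAS element in DNA, where they drive genes for survival kinases (*PIM1* and *PIM2*) and for inhibitors of cytokine signalling (*SOCS2* and *CISH*). ERK activity induces its own brakes, among them *DUSP6* and *SPRY2*. RNA counts measure the transcripts of these genes and not phosphorylation, and counts per gene do not separate *FLT3* transcripts with the duplication from any without it.

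The GAS element TTCNNNGAA was searched in promoter windows from RefSeq (GRCh38.p14), which run from 250 bases before to 50 bases after each annotated start. Of the 10 genes, 8 had a window, with 12 windows in all, and a match was found only in that of *CISH*, which held 4. It is shown because it is the one window among these genes in which the binding motif of the STAT5 proteins can be read. The capitals mark the 4 matches, and the sequence lies on the minus strand at chr3:50611725-50612024, read 5′ to 3′.
CISH promoter: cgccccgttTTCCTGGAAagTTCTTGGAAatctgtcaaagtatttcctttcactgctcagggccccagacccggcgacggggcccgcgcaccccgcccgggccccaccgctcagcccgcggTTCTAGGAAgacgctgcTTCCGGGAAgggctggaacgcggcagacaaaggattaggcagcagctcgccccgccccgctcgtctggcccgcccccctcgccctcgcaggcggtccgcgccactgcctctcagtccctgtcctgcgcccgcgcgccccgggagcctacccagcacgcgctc
The matches begin 241, 230, 129 and 112 bases before the start. Among 35116 promoter windows of 300 bases, 7.66% held at least 1 match and 7 windows (0.0199%) held 4 or more. The E-box CACGTG, the motif of MYC and its partner MAX, was found only in the window of *FLT3*, with its first base at position -183 relative to the start, against 7.26% of all windows. The ETS motif CCGGAAGT was in none of the 12 windows, against 4.14% of all windows. GAS and E-box read the same on both strands, the ETS motif was searched on both, and a match is a description of the letters and not of binding.

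The libraries held between 59674064 and 74808280 counts, and between 24360 and 25959 genes had at least 1 count. All 11 myeloid markers on a list of MV4-11 markers had at least 1 CPM, the counts of a gene scaled to the normalized size of its library, in each library, with summed levels from 1820 to 1959 CPM. The 11 markers of other cell types summed to between 264 and 286 CPM, of which *PECAM1*, a gene that monocytes also express, took 259.5 to 283 CPM, and *CD3D*, *MS4A1*, *HBB*, *PPBP* and *EPCAM* had 0 counts in all 6 libraries. *PNPLA2* gave 101, 97.0 and 107 CPM across shNC 1, 2 and 3, and 102, 98.1 and 104 CPM among those labelled shATGL 1, 2 and 3. The targeted transcript was not measurably lower (log2 fold change -0.01, 95% interval -0.15 to 0.14, adjusted p = 0.979), and each direction below is between libraries as labelled. The library labelled shATGL 3 stood apart from the other 2 of its group. Its chi-square per degree of freedom was 85.7 and 89.7 against them, while the other within-group pairs had between 11.3 and 26.4. Results that rest on it are given with and without it. It was singled out from these same counts. The p-values and intervals without it take no account of this choice and can be too small.

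None of the 10 genes differed between the groups at an adjusted p under 0.05 (edgeR quasi-likelihood test, Benjamini-Hochberg adjustment over 19149 genes), with adjusted p-values from 0.419 to 0.905. Among all genes tested, 1 gene (0.00522%) passed. At an unadjusted p under 0.05, 1 of the 10 genes was lower in the libraries labelled shATGL (*SPRY2*) and 0 were higher, against 5.94% of all genes lower and 5.77% higher. Log2 fold changes, given as shATGL minus shNC throughout, were above 0 for 4 genes and below 0 for 6, with a median of -0.083. Over all 19149 genes the median was 0.012, and 48.1% were below 0. The groups did not overlap for 1 of the 10 genes, *SPRY2*, which was lower in the libraries labelled shATGL, whereas 9.38% of all genes were lower and 7.93% higher without overlap. In these bulk samples, fewer cells of a type and less RNA per cell cannot be told apart.

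**Figure D1:**
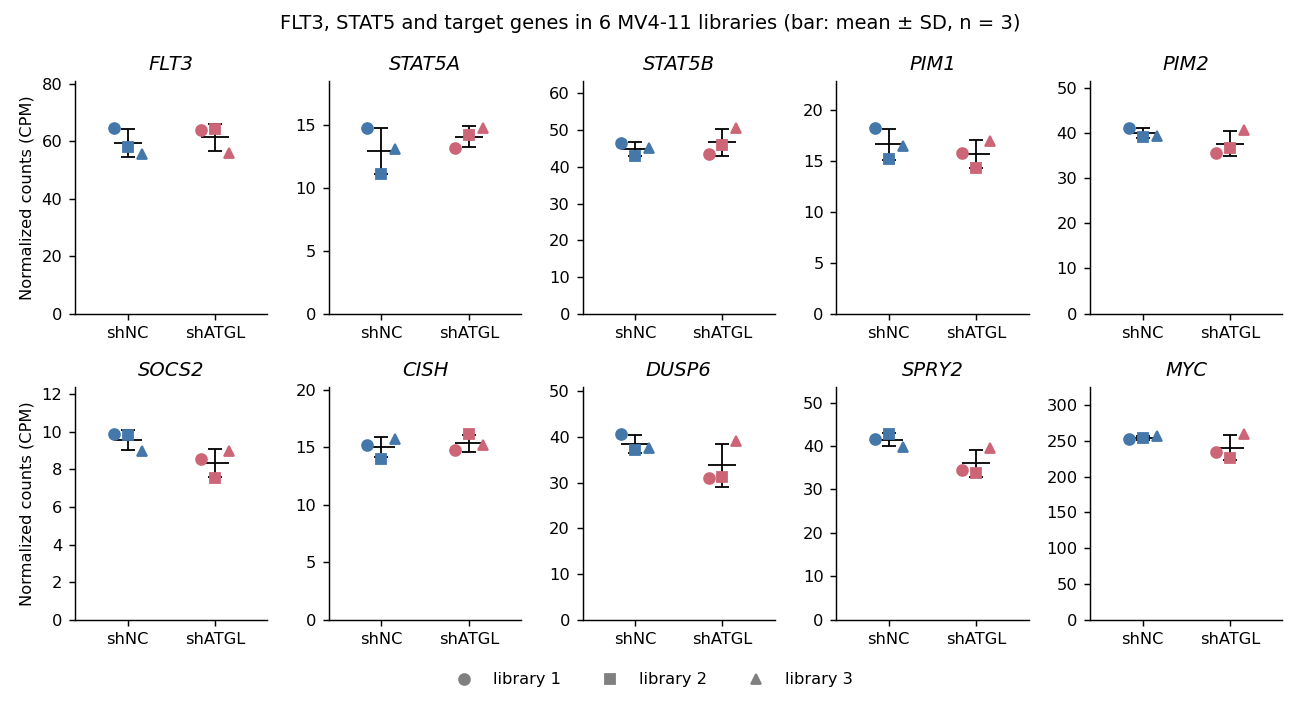
Level of each of the 10 genes in CPM, 1 panel per gene, with a point for every library and the mean and SD of each group of 3. The groups overlap in 9 panels, and in the *SPRY2* panel the highest library labelled shATGL (39.6 CPM) sits just under the lowest shNC library (39.8 CPM).

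*FLT3* (ENSG00000122025, chromosome 13 from 28003274 to 28100592, minus strand, GRCh38) encodes the receptor itself. Its level was 64.8, 58.2 and 55.5 CPM across shNC 1, 2 and 3, and 63.8, 64.4 and 56.0 CPM among those labelled shATGL 1, 2 and 3. The highest and the lowest value were both in shNC, so the range of the libraries labelled shATGL lay inside that of shNC. The means were 59.5 ± 4.8 and 61.4 ± 4.69 CPM (SD, n = 3 each), and the level was 103% of shNC with a 95% interval from 89.5% to 119% (log2 fold change 0.046, SE 0.089, adjusted p = 0.857). Between 3367 and 4934 counts per library lay behind these values. Exons of *FLT3* shared no bases with those of another gene.

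The direction of this small *FLT3* difference depended on the libraries and the correction used. The log2 fold change was -0.0027 without shNC 3 and -0.012 when each library's trend with exon length and GC content was removed. Of 13780 protein-coding genes, those whose centred log2(CPM + 1) values over the 6 libraries lay closest to those of *FLT3* were *CLEC12A*, *FAM199X* and *PILRA*, with root mean square differences of 0.0240, 0.0248 and 0.0250. *CLEC12A* encodes a lectin receptor of myeloid cells and *PILRA* an inhibitory receptor of myeloid cells. The root mean square of the *FLT3* values themselves was 0.0942, and *PILRA* was below 1 CPM in every library, where log2(CPM + 1) spans a narrow range. How many other genes lay nearly as close was not counted, and a shared role of the closest genes was not tested.

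The 2 *STAT5* genes lie next to each other on chromosome 17. *STAT5A* (ENSG00000126561, 42287547 to 42311943, plus strand) gave 14.8, 11.1 and 13.1 CPM across shNC, and 13.2, 14.3 and 14.8 CPM among those labelled shATGL. *STAT5B* (ENSG00000173757, 42199168 to 42276707, minus strand) gave 46.6, 42.9 and 45.2 CPM across shNC, and 43.6, 45.9 and 50.7 CPM among those labelled shATGL. For both genes the groups overlapped, and the highest value was in the library labelled shATGL 3. The level of *STAT5A* was 109% of shNC (95% interval 88.4% to 133%, log2 fold change 0.12, SE 0.13, adjusted p = 0.724). *STAT5A* also had the widest spread of the 10 genes within shNC, with a coefficient of variation of 14.2%. The level of *STAT5B* was 104% of shNC (95% interval 91.4% to 119%, log2 fold change 0.058, SE 0.081, adjusted p = 0.791), and its log2 fold change was -0.0064 without the library labelled shATGL 3.

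Within a library, *STAT5A* was the minor of the pair. Per kilobase of exon, its level was between 29% and 35.5% of that of *STAT5B*. On the log2 scale this ratio was -1.49, -1.79 and -1.62 in shNC and -1.56, -1.52 and -1.61 in the libraries labelled shATGL. The group means differed by 0.070, with overlapping groups (exact two-sided permutation p = 0.6, adjusted p = 1 over 4 pairs of genes). With 3 libraries against 3, the smallest two-sided p this test allows is 0.1.

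*PIM1* and *PIM2* encode serine/threonine kinases that promote survival and are constitutively active once made. *PIM1* (ENSG00000137193, chromosome 6 from 37170203 to 37175426, plus strand) gave 18.3, 15.2 and 16.4 CPM across shNC, and 15.8, 14.3 and 17.0 CPM among those labelled shATGL. *PIM2* (ENSG00000102096, chromosome X from 48913182 to 48919024, minus strand) gave 41.2, 39.2 and 39.4 CPM across shNC, and 35.5, 36.6 and 40.7 CPM among those labelled shATGL. *PIM2* was below every shNC library in the libraries labelled shATGL 1 and 2, and in shATGL 3 it lay within the shNC range. The level of *PIM1* was 94.1% of shNC (95% interval 78.6% to 113%, adjusted p = 0.767) and that of *PIM2* 94.2% (82.9% to 107%, adjusted p = 0.675). Without the library labelled shATGL 3, the log2 fold change of *PIM2* went from -0.086 to -0.15 (95% interval -0.29 to -0.0065, adjusted p = 0.156). Per kilobase of exon, *PIM1* was between 36.1% and 41.1% of *PIM2* in all 6 libraries, and the log2 ratio differed by 0.0015 between the group means (exact two-sided permutation p = 1, adjusted p = 1 over 4 pairs).

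*SOCS2* and *CISH* encode SH2-domain proteins of the SOCS family, which attach to activated cytokine receptors and limit their signals. *SOCS2* (ENSG00000120833, chromosome 12 from 93569814 to 93583487, plus strand) gave 9.90, 9.85 and 8.95 CPM across shNC, and 8.53, 7.55 and 9.0 CPM among those labelled shATGL. *CISH* (ENSG00000114737, chromosome 3 from 50606490 to 50611831, minus strand), the gene of the promoter with 4 GAS matches, gave 15.2, 14.0 and 15.7 CPM across shNC, and 14.8, 16.2 and 15.2 CPM among those labelled shATGL. *SOCS2* was lower than every shNC library in 2 of the 3 libraries labelled shATGL, while the *CISH* values were interleaved. The level of *SOCS2* was 87.4% of shNC (95% interval 72.6% to 105%, log2 fold change -0.19, SE 0.12, adjusted p = 0.523). That of *CISH* was 102% (95% interval 88.0% to 119%, log2 fold change 0.035, SE 0.095, adjusted p = 0.905), and its log2 fold change was -0.0042 without the library labelled shATGL 2.

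*SOCS2* had the fewest counts of the 10 genes, 541 to 717 per library. The log2 ratio of *SOCS2* to *CISH* per kilobase of exon was -1.03, -0.92 and -1.22 in shNC and -1.20, -1.51 and -1.16 in the libraries labelled shATGL. Its means of -1.06 ± 0.15 and -1.29 ± 0.19 (SD, n = 3 each) differed by -0.23, the largest difference of the 4 pairs, but the groups overlapped (exact two-sided permutation p = 0.3, adjusted p = 1). Both genes have overlapping neighbours on the other strand, and the strand setting of the counting is not known. *CISH* shares 218 exon bases (4.3%) with *MAPKAPK3*, which had 10613 to 13754 counts per library, and *SOCS2* shares 277 exon bases (4.1%) with *SOCS2-AS1*, which had 46 to 101 counts.

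*DUSP6* and *SPRY2* are both induced by ERK and act back on the pathway. DUSP6 is a phosphatase that removes the activating phosphates from ERK, and SPRY2 is a Sprouty protein that damps signalling from receptor tyrosine kinases to ERK. *DUSP6* (ENSG00000139318, chromosome 12 from 89347232 to 89353271, minus strand) gave 40.8, 37.1 and 37.6 CPM across shNC, and 30.9, 31.3 and 39.2 CPM among those labelled shATGL. *SPRY2* (ENSG00000136158, chromosome 13 from 80335976 to 80340951, minus strand) gave 41.6, 42.8 and 39.8 CPM across shNC, and 34.6, 33.7 and 39.6 CPM among those labelled shATGL. Both genes were below the whole shNC range in the libraries labelled shATGL 1 and 2. In the library labelled shATGL 3, *DUSP6* was inside the shNC range and *SPRY2* was just under its lower end. The level of *DUSP6* was 87.8% of shNC (95% interval 73.8% to 104%, log2 fold change -0.19, SE 0.11, adjusted p = 0.516). The level of *SPRY2* was 86.9% of shNC (95% interval 75.7% to 99.7%, log2 fold change -0.20, SE 0.085, unadjusted p = 0.0461 by edgeR, adjusted p = 0.419). By the exact two-sided permutation test, *SPRY2* gave p = 0.1, the smallest that 3 against 3 libraries can give.

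These calls depended on 1 library, which was singled out from the same counts. Without the library labelled shATGL 3, *DUSP6* was lower by a log2 fold change of -0.31 (SE 0.069, 95% interval -0.47 to -0.15, adjusted p = 0.0279) and *SPRY2* by -0.28 (SE 0.063, 95% interval -0.43 to -0.13, adjusted p = 0.0284). They were the 2 of the 10 genes called in that fit, both lower, against 6.07% of 19954 genes called lower and 7.94% called higher. Limma voom with quality weights on all 6 libraries also called *DUSP6* (log2 fold change -0.30, adjusted p = 0.0405) and *SPRY2* (-0.27, adjusted p = 0.0342), again as 2 of 10, against 5.27% of all genes called lower and 5.57% higher. This voom fit gives less weight to a library that deviates from its group, and the weights are not given here. Its 2 log2 fold changes were close to those without shATGL 3, so it is not a separate check of these calls. In none of the other 5 fits that leave out 1 library was any of the 10 genes called. Mitochondrial genes took 6.34% and 6.51% of the counts in the libraries labelled shATGL 1 and 2, where *DUSP6* and *SPRY2* were lowest, 7.66% in shATGL 3 and 7.41% to 8.17% in shNC, and the part of this difference in the result was not tested.

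The feedback genes were also compared with each other within a library. Per kilobase of exon, *DUSP6* was between 56.8% and 64.8% of *SPRY2*, and the log2 ratios of -0.64, -0.82 and -0.69 in shNC and of -0.77, -0.71 and -0.63 in the libraries labelled shATGL differed in mean by 0.012 (exact two-sided permutation p = 0.9, adjusted p = 1). *DUSP6* shares 1875 exon bases (40.5%) with an antisense gene, ENSG00000274021, which had 84 to 137 counts per library, against 2208 to 2952 for *DUSP6*.

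**Figure D2:**
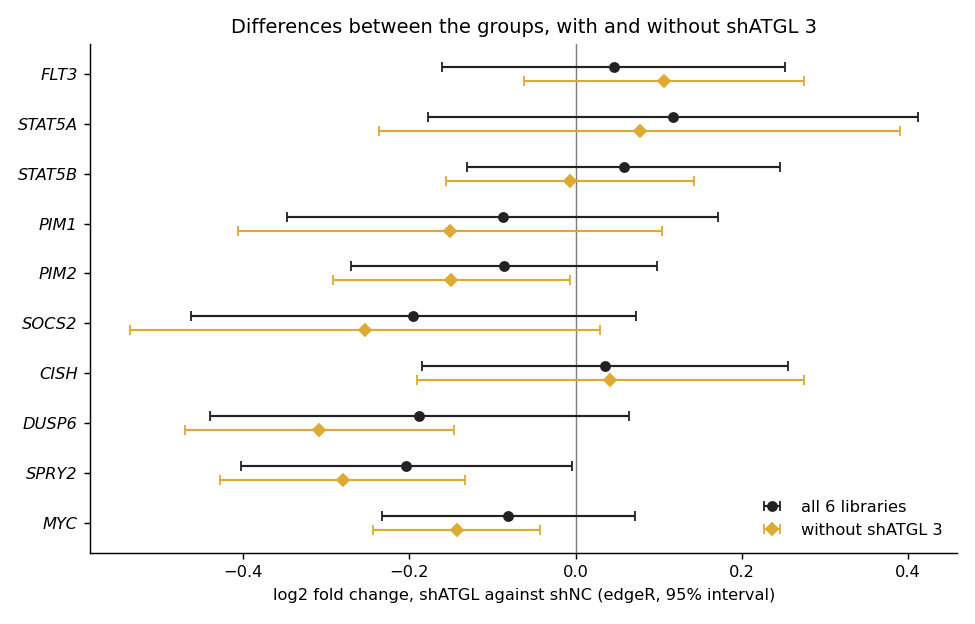
Log2 fold change of each gene, shATGL minus shNC, with its 95% interval from edgeR, for all 6 libraries and without the library labelled shATGL 3. With all 6 libraries only the interval of *SPRY2* ends below 0, and without shATGL 3 the intervals of *DUSP6*, *SPRY2*, *MYC* and *PIM2* do.

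*MYC* (ENSG00000136997, chromosome 8 from 127735434 to 127741434, plus strand) encodes a transcription factor of growth and ribosome production, on which FLT3 and many other signals converge. Its level was 252, 253 and 257 CPM across shNC, and 235, 226 and 259.9 CPM among those labelled shATGL. The shNC libraries were tightly grouped, with a coefficient of variation of 1.0% against 7.29% in the libraries labelled shATGL, of which 1 and 2 lay below and 3 above all shNC libraries. The means were 254 ± 2.54 and 240.3 ± 17.5 CPM (SD, n = 3 each), and the level was 94.6% of shNC (95% interval 85.1% to 105%, log2 fold change -0.081, SE 0.066, adjusted p = 0.634). Without the library labelled shATGL 3, the log2 fold change was -0.14 (95% interval -0.24 to -0.042, adjusted p = 0.0680).

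The shATGL 3 library differed from the other 2 of its group in the same direction for most of these genes. On the log2 scale it was above the mean of the libraries labelled shATGL 1 and 2 for 8 of the 10 genes, by 0.11 (*STAT5A*) to 0.33 (*DUSP6*), and below it for *FLT3* (-0.20) and *CISH* (-0.024). Over all genes tested it was above that mean for 9816 of 19149, with a median of 0.0077. Of the 83 other pathway genes described below, 50 were above it (median 0.073). Among their 14 receptor-proximal genes, 10 were above it (median 0.20, against 0.17 for the 10 genes). Against the mean of shNC, the same library differed by between -0.086 (*SOCS2*) and 0.20 (*STAT5A*). The biological coefficient of variation that edgeR assigned was between 7.97% (*MYC*) and 13.8% (*STAT5A*) for the 10 genes. Its median was 10.8% for these genes, 10.3% for the 83 other pathway genes and 17.2% over all genes. The 95% intervals of the 10 genes reached at most 27.4% below and 33.0% above the shNC level.

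Levels can be ordered between genes only per length of exon. This length joins all annotated exons of a gene and can exceed that of the transcripts present, so the order depends on the annotation. *MYC* was highest, with a mean of 82.4 CPM per kilobase of exon over the 6 libraries (range 75.4 to 86.6). *FLT3* (14.5, range 13.4 to 15.6), *PIM2* (14.0, range 12.9 to 14.9) and *SPRY2* (12.7, range 11.1 to 14.1) followed, and in this run the ranges of neighbouring genes overlapped. *DUSP6* (7.80) and *STAT5B* (7.11) were next and overlapped as well. They were followed by *PIM1* (5.43), *CISH* (2.97), *STAT5A* (2.35) and *SOCS2* (1.32 CPM per kilobase), whose ranges were separate from each other. All these ranges cover only the spread between libraries. *SOCS2* was the lowest of the 10 genes in every library.

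**Figure D3:**
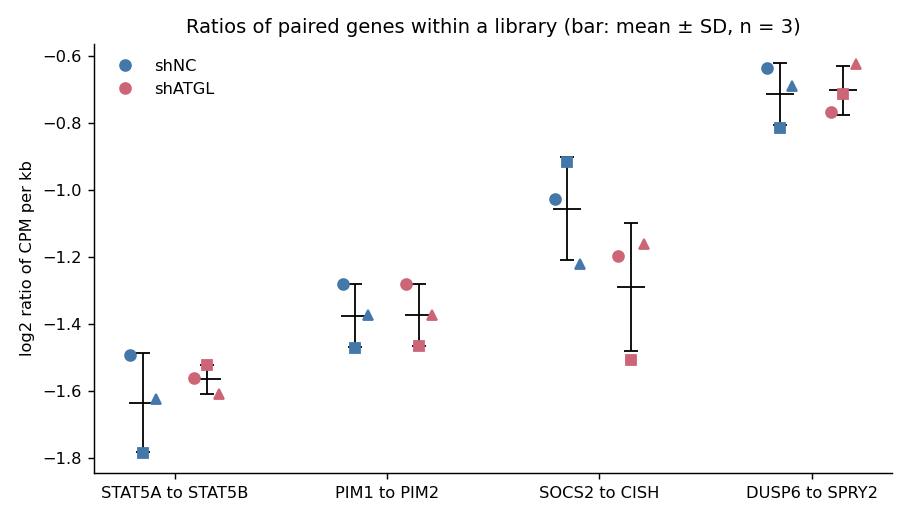
Log2 ratio of CPM per kilobase of exon within each library for 4 pairs of genes, with a point per library and the mean and SD of each group of 3. The groups overlap in each pair, and the largest difference between the means is that of *SOCS2* to *CISH* (-0.23).

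The rest of the pathway was read from a list of 87 genes, of which 83 passed the filter and 4 did not (*IL2RA*, *SPRY1*, *IER3* and *EPHA4*). None was called over all 6 libraries by edgeR (smallest adjusted p = 0.392), 40 were higher and 43 lower, and the median log2 fold change was -0.013. At an unadjusted p under 0.05, 4 of the 83 were higher and 3 lower, against 5.77% of all genes higher and 5.94% lower. Without the library labelled shATGL 3, 10 of the 83 were called higher and 9 lower, against 7.94% of all genes called higher and 6.07% lower in that fit.

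Upstream of STAT5, the receptor-proximal group held 14 tested genes, 6 higher and 8 lower, with a median of -0.031. Its most abundant genes per kilobase were *GRB2*, an adaptor that links receptors to RAS, *SHC1*, another adaptor, and *SYK*, a cytoplasmic tyrosine kinase. *GRB2* gave 671, 655 and 697 CPM across shNC, and 585, 595 and 695 CPM among those labelled shATGL, again with shATGL 3 apart from shATGL 1 and 2. Its log2 fold change was -0.11 over all 6 libraries and -0.19 (adjusted p = 0.0279) without shATGL 3. In that fit 1 of the 14 genes was called higher and 2, with *GRB2*, lower, beside 7.94% and 6.07% of all genes. The others, named after their values were seen, were *SOS1*, an exchange factor that activates RAS (0.71, adjusted p = 0.00763), and *SLA*, an adaptor that lowers receptor signals (-0.29, adjusted p = 0.0408).

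The Janus kinase and STAT group held 14 tested genes, 12 above and 2 below 0, with a median of 0.12, and no gene was called over all 6 libraries. Of all genes, 48.1% were below 0. Log2 fold change correlated with exon length (Spearman's rho 0.19 over 18566 genes that are not independent). The median exon length was 6139.5 bases in this group, 6478 in the receptor-proximal group (median log2 fold change -0.031) and 4023 over all genes. The part of length in the 12 of 14 was not tested. *TYK2*, a Janus kinase of cytokine and interferon receptors, gave 114, 112 and 111 CPM across shNC, and 145, 139 and 128 CPM among those labelled shATGL. *STAT2*, which acts in interferon signalling, was at 31.4, 30.7 and 28.8 CPM and at 40.7, 40.3 and 34.3 CPM. For both genes every library labelled shATGL was above every shNC library. Their log2 fold changes were 0.30 (SE 0.064, unadjusted p = 0.00193 by edgeR) and 0.34 (SE 0.091, unadjusted p = 0.00601 by edgeR), with an adjusted p = 0.392 for each. Among the 14 genes, 4 were higher and 1 lower without overlap, beside 7.93% and 9.38% of all genes. Without shATGL 3, 4 of the 14 genes were called higher and 0 lower, beside the 7.94% and 6.07% of all genes in that fit, and *TYK2* (0.34, adjusted p = 0.00512) and *STAT2* (0.42, adjusted p = 0.0100) were among them. The other 2, named after their values were seen, were *JAK2* (0.55, adjusted p = 0.0322) and the phosphatase gene *PTPN2* (0.28, adjusted p = 0.0327). Among the abundant genes of the group, the log2 fold change was 0.10 for *STAT6* (adjusted p = 0.514) and -0.075 for *PTPN6* (adjusted p = 0.595).

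The other STAT5 targets were evenly split, with 5 of 10 tested genes higher and 5 lower and a median of -0.018. *PIM3*, the third *PIM* kinase, gave 77.9, 77.9 and 81.5 CPM across shNC, and 69.5, 68.8 and 73.9 CPM among those labelled shATGL, a separation of the groups with a log2 fold change of -0.16 (unadjusted p = 0.0329 by edgeR, adjusted p = 0.401). Of the 10 tested genes, 2 were lower and 0 higher without overlap, beside 9.38% and 7.93% of all genes. *PIM3* was the 1 gene of this group called without shATGL 3 (-0.20, adjusted p = 0.0409). In that fit 6.07% of all genes were called lower and 7.94% higher. *MCL1*, a survival factor of the BCL2 family, had a log2 fold change of 0.025 and *CCND3*, a D-type cyclin, -0.062.

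The RAS to ERK cascade held 14 tested genes, 6 higher and 8 lower (median -0.017), and *NRAS* (-0.014) and *ARAF* (-0.089) were among its most abundant genes per kilobase. Without shATGL 3, 2 of these 14 genes were called higher and 0 lower, beside 7.94% and 6.07% of all genes in that fit. Both, named after their values were seen, encode GTPase-activating proteins of RAS, *RASA1* (0.51, adjusted p = 0.0162) and *RASA2* (0.53, adjusted p = 0.0385). Of the 14 tested ERK outputs other than *DUSP6* and *SPRY2*, 5 were higher and 9 lower (median -0.037). The most abundant were *DUSP7* (-0.047), a phosphatase of ERK, *SPRED2* (0.049), a Sprouty-related inhibitor, and *FOSL1* (-0.15), an AP-1 subunit. None of the 14 was called without the library labelled shATGL 3 by edgeR (smallest adjusted p = 0.166), and none had an unadjusted p under 0.05 over all 6 libraries. Whether *DUSP6* and *SPRY2* differed from the other outputs was not tested.

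The MYC network held 17 tested genes, 6 higher and 11 lower, with a median of -0.081. *ODC1*, the first enzyme of polyamine synthesis, gave 338, 337 and 360.3 CPM across shNC, and 293, 294 and 324 CPM among those labelled shATGL (log2 fold change -0.18, unadjusted p = 0.0212 by edgeR). *LDHA*, which turns pyruvate into lactate, was at 886, 856 and 917 CPM and at 803, 800.4 and 809 CPM (-0.14, unadjusted p = 0.0241 by edgeR). In the other direction, *CAD*, an enzyme of pyrimidine synthesis, was at 123, 130 and 126 CPM and at 146, 143 and 137 CPM (0.17, unadjusted p = 0.0187 by edgeR), and *MLXIP*, a relative of the MYC partners, had a log2 fold change of 0.20. The groups did not overlap for these 4 genes, and none passed the adjusted test. Of the 17 genes, 2 were lower and 3 higher without overlap, beside 9.38% and 7.93% of all genes. The nucleolar genes *NCL* (0.084) and *NPM1* (-0.053) were the most abundant besides *LDHA*, and *NCL* was lower in the library labelled shATGL 3 (873 CPM) than in the other 5 (973 to 1240 CPM). Without shATGL 3, 3 of the 17 genes were called higher and 6 lower, beside 7.94% and 6.07% of all genes in that fit. Of the genes named above, these were *NCL* (0.23, adjusted p = 0.0324) and *CAD* (0.20, adjusted p = 0.0328), which were higher, and *ODC1* (-0.24, adjusted p = 0.0208), which was lower. The others were named after their values were seen. They were *TFRC* (0.29), which was higher, and *FBL* (-0.275), *CDK4* (-0.28), *MXI1* (-0.25), *MAX* (-0.24) and *MLX* (-0.20), which were lower.

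**Figure D4:**
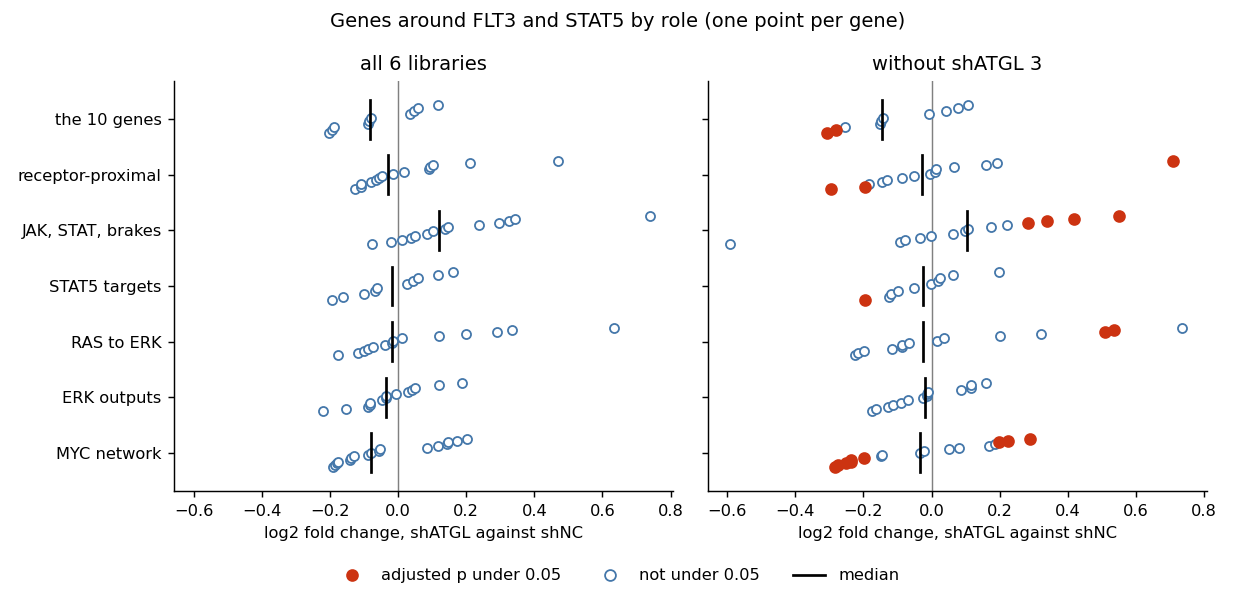
Log2 fold change, shATGL minus shNC, of the 10 genes (top row) and of the 83 other tested pathway genes in 6 groups, with a point per gene (filled where the adjusted p is under 0.05) and a line at each median, over all 6 libraries and without the library labelled shATGL 3. With all libraries no point is filled, and the Janus kinase and STAT group has 12 of 14 points above 0. Of all genes tested, 48.1% were below 0.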

How the data were processed

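RNA from 6 MV4-11 libraries was sequenced, 3 labelled shNC and 3 labelled shATGL, and groups and numbers were taken from the sample labels. The authors cleaned paired-end NovaSeq reads with FASTP and deposited raw read counts per gene, without normalization, for 61806 human Ensembl genes. The labels and the supplementary methods differ in the RNA isolation, and the labels give an amplification step. The submitters' processing notes name a mouse build, mm10, although all identifiers are human. The aligner, the counter, its strand setting and the annotation are not given in the sources used here, so counts where genes overlap cannot be assigned to a strand. Positions and exon lengths are from GENCODE 29 (GRCh38). The exon length of a gene is the union of all its annotated exons, also where ratios between genes are given per kilobase.

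Low counts were filtered with filterByExpr (minimum count 10, minimum total 15). Values are TMM-normalized CPM. Groups were compared with the quasi-likelihood test of edgeR 4.0.16 in R 4.3.3, with Benjamini-Hochberg adjustment over all genes tested. For single values, an exact permutation test (two-sided, 20 relabellings) was run on log2(CPM + 1). The script was tested on simulated data. Alternatives were DESeq2 1.42.0 and its size factors, upper-quartile factors, limma 3.58.1 (voom with quality weights), no filter, a minimum of 10 counts per library, a replicate block, offsets for trends with exon length and GC content (splines with 4 degrees of freedom), each library left out in turn, and a pseudocount of 0.1. At depths of 59674064 to 74808280 counts, the spread between libraries limited the precision.

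The 10 genes, the pathway list and the markers were chosen with earlier results of these data known. Named pathway genes are the 3 with the highest CPM per kilobase in each group and up to 8 with the smallest unadjusted p under 0.05, and genes named as like *FLT3* are the 3 closest. Overlapping genes and untested genes are named beside these. Some genes that these rules name are not reported here.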

Additional observations from a re-analysis of the deposited data

How the results depend on the processing

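Of 140 log2 fold changes (10 genes under 14 alternatives), 131 kept their direction and their side of the threshold, 4 gained a call and 5 changed direction. *DUSP6*, *MYC*, *PIM1*, *PIM2*, *SOCS2*, *SPRY2* and *STAT5A* kept their direction in 14 of 14. With voom, *STAT5B* was -0.0026, and *DUSP6* (-0.30, adjusted p = 0.0405) and *SPRY2* (-0.27, adjusted p = 0.0342) were called. By voom, 2 of the 10 genes had an adjusted and 5 an unadjusted p under 0.05, while 5861 of all 19149 genes had an unadjusted p under 0.05. The unadjusted count among the 10 genes was 0 with upper-quartile factors and with DESeq2. With the length and GC trends removed, *FLT3* was -0.012, and Spearman's rho of log2 fold change with exon length, over 18566 genes that are not independent, went from 0.19 to 0.074. Over all genes, 3 were called with upper-quartile factors, 89 with DESeq2 and 2076 with voom. Leaving out 1 library gave 0 to 2795 genes, 0 to 2 of the 10 by adjusted p and 0 to 4 by unadjusted p, each highest without shATGL 3. In the fit without shATGL 3, 5739 of 19954 genes had an unadjusted p under 0.05 by edgeR. Counts of 0 genes came without shATGL 1 and without shNC 3, where 1052 and 1113 genes had an unadjusted p under 0.05 by edgeR. The same fits gave -0.0027 to 0.11 for *FLT3*, -0.0064 to 0.11 for *STAT5B*, -0.0042 to 0.071 for *CISH*, -0.31 to -0.13 for *DUSP6* and -0.28 to -0.16 for *SPRY2*. The causes were not tested.

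The replicate block gave 0 called genes and 0 of the 10 genes at an unadjusted p under 0.05. Over all genes, 3317 had an unadjusted p under 0.05 by edgeR with the block and 2243 without it. Deviations of same-numbered libraries correlated at 0.060, 0.23 and 0.34 over 13935 genes, and those of differently numbered libraries at -0.29 to 0.19. Not every library correlated best with its own number, and the numbers were not taken to pair the libraries. The block changed no other call.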

Other observations

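The log2 ratio of *PIM1* to *PIM2* per kilobase of exon was nearly the same in libraries of the same number. It was -1.28, -1.47 and -1.37 in shNC 1, 2 and 3 and -1.28, -1.46 and -1.37 in the libraries labelled shATGL 1, 2 and 3, and the differences within a number were -0.00087, 0.0061 and -0.00059. The counting error of 1 such ratio was between 0.048 and 0.056 (SE), so these differences are smaller than the counts can resolve. The pattern was noticed after the values were seen, and was not tested.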
